A study of Mus musculus with 11 samples.

Results

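The inhibitors of cyclin-dependent kinases (CDKs) were described at 3 postnatal ages in GFP-positive muscle cells of Pax3GFP/+ mice. The genes were the Cip/Kip family (Cdkn1a, Cdkn1b and Cdkn1c) and the Ink4 family (Cdkn2a, Cdkn2b, Cdkn2c and Cdkn2d). Every probe set whose only gene symbol was one of these 7 was taken, which gave 9 of the 45037 probe sets that were not manufacturer controls, for 7 of the 18193 genes named by them. Cdkn1a and Cdkn1b had 2 probe sets each, and the other genes had 1 each. No probe set naming several genes held a member (0 of them).

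Expression was measured on 11 Affymetrix Mouse430_2 arrays: 4 of them of mice aged 1 day after birth (P1), 4 aged 12 days (P12) and 3 aged 28 days (P28). All mice were heterozygous for GFP in the Pax3 locus on a C57BL/6J background, so the cells of every age carried that allele. P1 and P12 cells came from trunk muscle and are labelled as proliferating satellite cells. The P28 label is satellite cells, taken from pectoral, abdominal and intercostal muscle. The gate was GFP from the Pax3 locus with dead cells excluded by propidium iodide, so it takes any GFP-positive cell and not satellite cells alone. Arrays of 1 age are labelled as biological replicates with no number of animals for each, so p-values measure the spread between these arrays. The sampled muscles and the suffix of the internal sample names differed between P28 and the younger ages, so age cannot be told apart from either of these in any P28 comparison.

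CDK inhibitors hold the cell cycle in G1 by acting on the kinases that phosphorylate the retinoblastoma protein. Ink4 proteins bind Cdk4 and Cdk6 and keep them from D-type cyclins, whereas Cip/Kip proteins bind cyclin-CDK complexes more broadly, including those of cyclin E and cyclin A. In skeletal muscle, Cdkn1a (p21) and Cdkn1c (p57) are known for the cell cycle exit of differentiating myoblasts, and Cdkn1b (p27) for quiescent satellite cells. Cdkn2a encodes p16Ink4a and, in another reading frame, p19Arf, a product linked to senescence and to p53.

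All values are log2 values per probe set as deposited, made by RMA (robust multi-array average), and a difference of 1 is a doubling of signal. The arrays had median log2 values of 5.499 to 5.57, and the highest bacterial Trp control probe set of each array, taken as background, lay at 3.54 to 3.96. The Gapdh control probed at its 3′ end exceeded the same control probed at its 5′ end, and this log2 difference, which grows with RNA degradation or short products, had means and SDs of 2.17 ± 0.60 on the 4 arrays of P1, 2.10 ± 0.88 on the 4 of P12 and 0.90 ± 0.10 on the 3 of P28. At P1 and P12 it was 2.59 to 3.05 in replicates 1 and 2 (array set 1 below) and 1.32 to 1.69 in replicates 3 and 4 (array set 2 below). On the P28 arrays it was 0.79 to 0.99, below every younger array, so age cannot be told apart from it in any P28 comparison. P28 changes given with this difference as a covariate extend a fitted slope beyond the values of the younger arrays. Changes between ages were tested with limma on all 45037 probe sets, and a probe set is said to have risen or fallen at a Benjamini-Hochberg adjusted p under 0.05.

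The satellite cell markers Pax7 (10.75, 10.78 and 10.72 at P1, P12 and P28), Pax3 (8.29, 8.60 and 8.48) and Myf5 (10.49, 10.39 and 10.67) were well above the background controls at every age. Of 8 satellite cell markers, 1 rose in P12 against P1, 1 in P28 against P12 and 2 in P28 against P1. None fell (0 in each comparison), and the median changes were 0.33, -0.06 and 0.29. Markers of other cells were higher at P28. Of 6 myofibre genes, 6 rose and 0 fell in P28 against P12, and the mean of their log2 values was 12.03 to 12.51 at P28 and 8.45 to 9.88 at P12 (7.73 to 8.04 at P1). Of 5 endothelial genes, 5 rose and 0 fell, with means of 8.05 to 8.80 at P28 and 5.93 to 6.73 at P12 (5.69 to 6.40 at P1). Of 5 fibro-adipogenic genes, 3 rose and 0 fell, with means of 10.66 to 11.41 at P28 and 9.50 to 9.96 at P12 (9.76 to 10.25 at P1). Of 4 melanocyte genes, 0 rose and 0 fell in any comparison. Dct, Tyrp1 and Mlana had age means of 3.76 to 4.57, and Pmel was higher at 5.76, 5.502 and 5.48 (P1, P12 and P28). Of 6 macrophage and leukocyte genes, 2 rose and 0 fell in P28 against P12 (means of 6.68 to 7.92 at P28 and 6.13 to 6.49 at P12), and so did 2 of 4 smooth muscle and pericyte genes (9.58 to 9.76 at P28 and 8.56 to 9.06 at P12). Of 2 erythroid genes measured, Alas2 rose by 2.76 ± 0.43 in P28 against P12 and by 3.52 ± 0.43 in P28 against P1, and Hba-a1 (4.22, 4.17 and 4.12) passed in no comparison. Neither of 2 Schwann cell genes passed in any. In P12 against P1 the myofibre genes had already moved, with 3 of 6 that rose, among them Myh4 (3.32 ± 0.40) and Pvalb (3.29 ± 0.27). The part of RNA from these cells in the results below was not tested, and fewer cells of a type cannot be told apart from less RNA per cell.

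RefSeq places Cdkn1a on chromosome 17 (29090979 to 29100722), Cdkn1b on chromosome 6 (134920401 to 134925525), Cdkn1c on chromosome 7 (143458339 to 143461059) and Cdkn2d on chromosome 9 (21288459 to 21291421) of GRCm38.p6. The other 3 genes lie on chromosome 4, with Cdkn2a (89274473 to 89294619) and Cdkn2b (89306289 to 89311032) side by side and Cdkn2c (109660876 to 109666756) apart from them. RefSeq promoter windows of 300 bases, 250 before and 50 after a start site, were available for 6 of the 7 genes (9 windows). They were searched on both strands for several motifs, which overlap where their letters allow. The E2F motif was searched as the octamer TTTCCCGC and as the variant form spelled TTTGGCGC and as another variant form spelled TTTCGCGC and as a last variant form spelled TTTGCCGC. The GC box was searched with the letters GGGCGG throughout, the CCAAT box by the letters of its name, and the FoxO motif with the letters TGTTTAC throughout. The E-box of the MyoD type was searched with the letters CAGCTG throughout and also, as a separate form, with the letters CACCTG throughout, and the last motif was the p53 consensus of adjoining decamers with at most 1 mismatch.

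The p53 consensus was found in 29 of all 32851 windows (0.0883%), and among the members only in the upstream window of Cdkn1a, from -51 to -32 with the start site as 0. An E2F motif was found in 1 of the 9 windows, at -99 to -92 of the upstream start site of Cdkn2a, against 2.26% of all windows, and the FoxO motif in 0, against 3.65%. GC boxes were in 7 of the 9 windows, against 35.7% of all windows, with 4 in the upstream window of Cdkn2c and 5 in that of Cdkn2d. The windows with a GC box were 57.67% to 77% G and C, against a median of 52.67% over all windows. CCAAT boxes were in 4 of the 9, against 37.4% of all windows, with 3 in the window of Cdkn1b. E-boxes were found in both windows of Cdkn1a and in no other member's, against 32.9% of all windows. A match is a description of these letters only. The window of Cdkn1a with the p53 match and those of the 3 genes with a probe set that rose in P28 against P1 are printed 5′ to 3′ on the strand of the gene, with p53, GC box and CCAAT matches in capitals. They are chr17:29090729-29091028 (plus strand), chr6:134920151-134920450 (plus strand), chr4:109666707-109667006 (minus strand) and chr9:21291160-21291459 (minus strand).
Cdkn1a: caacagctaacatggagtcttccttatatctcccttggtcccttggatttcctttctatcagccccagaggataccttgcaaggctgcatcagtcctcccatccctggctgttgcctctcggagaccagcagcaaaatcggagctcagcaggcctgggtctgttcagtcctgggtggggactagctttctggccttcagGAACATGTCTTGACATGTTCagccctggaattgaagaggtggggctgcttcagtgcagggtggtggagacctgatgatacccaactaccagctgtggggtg
Cdkn1b: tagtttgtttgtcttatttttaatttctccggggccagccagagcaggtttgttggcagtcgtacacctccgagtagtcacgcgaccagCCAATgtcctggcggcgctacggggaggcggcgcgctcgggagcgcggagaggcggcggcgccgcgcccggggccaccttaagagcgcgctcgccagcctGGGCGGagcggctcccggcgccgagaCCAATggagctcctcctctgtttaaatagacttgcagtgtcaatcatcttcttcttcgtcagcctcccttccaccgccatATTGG
Cdkn2c: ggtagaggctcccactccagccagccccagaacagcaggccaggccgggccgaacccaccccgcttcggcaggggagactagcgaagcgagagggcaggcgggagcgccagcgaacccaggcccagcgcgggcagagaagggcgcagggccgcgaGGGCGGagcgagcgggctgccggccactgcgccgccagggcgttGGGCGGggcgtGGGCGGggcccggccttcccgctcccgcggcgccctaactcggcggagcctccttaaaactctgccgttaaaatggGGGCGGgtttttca
Cdkn2d: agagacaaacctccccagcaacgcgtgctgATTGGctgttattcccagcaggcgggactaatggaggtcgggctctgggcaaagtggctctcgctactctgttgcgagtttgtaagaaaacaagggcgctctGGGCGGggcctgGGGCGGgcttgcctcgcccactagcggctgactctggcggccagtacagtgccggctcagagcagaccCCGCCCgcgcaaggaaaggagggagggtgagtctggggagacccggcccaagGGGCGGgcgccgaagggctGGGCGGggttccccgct

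Across the ages, 4 of the 9 probe sets differed in limma's moderated F test (adjusted p under 0.05), against 36.3% of all probe sets. These were 1419497_at of Cdkn1b (adjusted p = 2.0e-05), Cdkn2c (0.00168), Cdkn2b (0.00253) and Cdkn2d (0.00458). Between P12 and P1, 1 probe set rose and 0 fell, where 3.25% of all probe sets rose and 1.59% fell (4.84% in either direction). The P28 against P12 comparison had 1 that rose and 1 that fell, where 13.5% of all rose and 15.9% fell (29.4% in either direction). The P28 against P1 comparison had 3 that rose and 1 that fell, where 17.6% of all rose and 17.4% fell (35.0% in either direction). The shares called over the whole array were thus much larger in both P28 comparisons than between P12 and P1. Arrays of the compared ages did not overlap in 10.3% of all probe sets in P12 against P1. This held for 35.3% in P28 against P12 and 40.7% in P28 against P1, and the separations of arrays given below stand beside these shares.

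**Figure D1:**
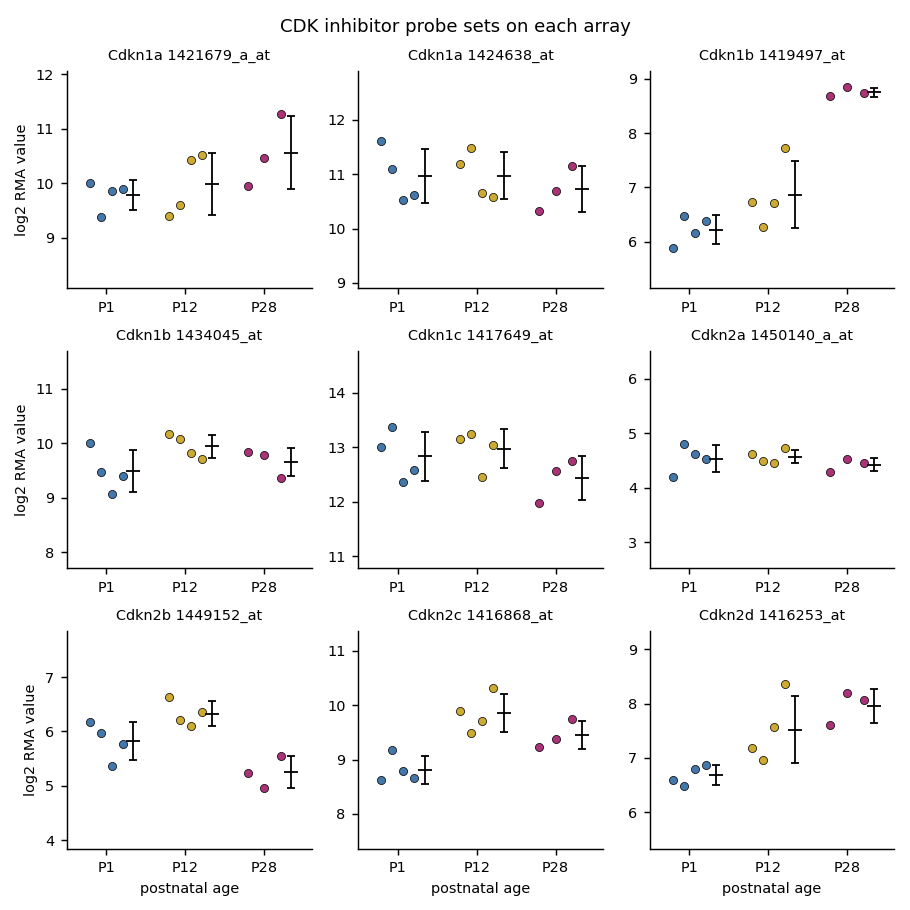
Log2 RMA values (vertical axes, each spanning 4 units) of the 9 probe sets on each of the 11 arrays, by postnatal age and in replicate order. Bars give the mean and SD of an age. The P28 points of Cdkn1b 1419497_at lie above all others of that probe set, and those of Cdkn2b lie below all P12 points.

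**Figure D2:**
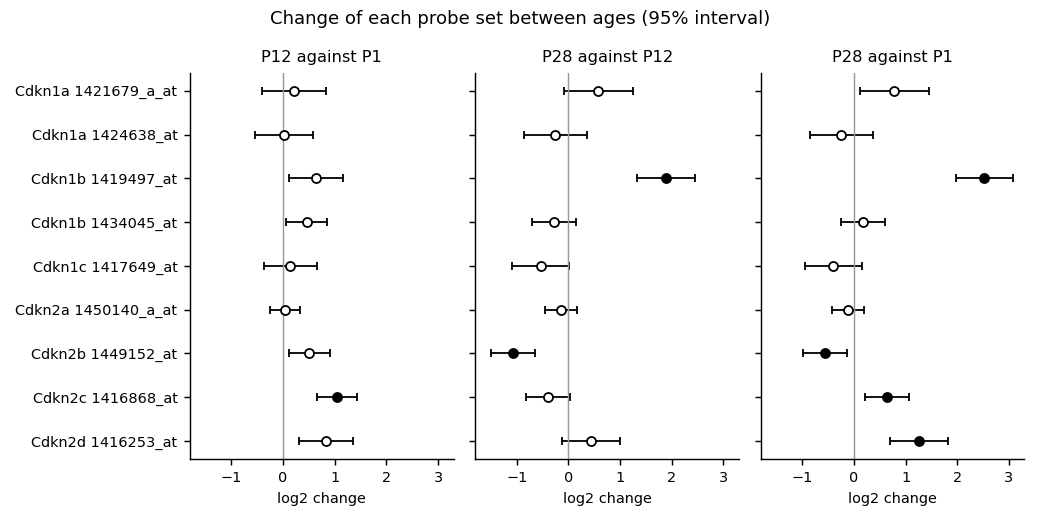
Log2 change of each probe set in the 3 comparisons with its 95% interval from the fit (horizontal axis), filled where the adjusted p was under 0.05. Only Cdkn2c is filled in P12 against P1. Cdkn1b 1419497_at reaches 2.53 in P28 against P1, and the other probe set of that gene stays near 0.

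Among the Ink4 genes, Cdkn2c (p18), an inhibitor of Cdk4 and Cdk6, was the 1 member that rose in P12 against P1 in the fit without blocks. Its values were 8.62, 9.17, 8.78 and 8.66 on the P1 arrays, 9.90, 9.48, 9.71 and 10.32 on the P12 arrays, and 9.24, 9.38 and 9.75 on the P28 arrays. All P12 arrays and all P28 arrays were above all P1 arrays, and the P12 and P28 arrays overlapped. The increase in P12 against P1 was 1.05 ± 0.18 (SE, adjusted p = 0.00601 in limma, 2.06-fold). It was 0.80 ± 0.23 within array set 1 (2 arrays against 2, adjusted p = 0.209) and 1.29 ± 0.21 within array set 2 (adjusted p = 0.013). In P28 against P1 Cdkn2c rose by 0.65 ± 0.20 (adjusted p = 0.0207), and in P28 against P12 the difference was -0.40 ± 0.20, which did not pass (adjusted p = 0.153, 95% interval -0.82 to 0.03). The P28 against P1 call ended without P1 replicate 4 (0.60) or P28 replicate 3 (0.50), after a further quantile normalization (0.46) and with the Gapdh 3′ to 5′ difference as a covariate (0.51 ± 0.27, adjusted p = 0.184).

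Cdkn2d (p19Ink4d), another inhibitor of Cdk4 and Cdk6, was at 6.60, 6.49, 6.80 and 6.86 on the P1 arrays, at 7.19, 6.97, 7.57 and 8.36 on the P12 arrays, and at 7.60, 8.20 and 8.06 on the P28 arrays. The P1 arrays were the lowest and overlapped with no array of another age, while P12 replicate 4 was the highest of all. In P28 against P1 it rose by 1.26 ± 0.26 (adjusted p = 0.00203, 2.40-fold). Under the 3′ to 5′ covariate that change was 0.63 ± 0.25 and did not pass (adjusted p = 0.0845). The change in P12 against P1 was 0.83 ± 0.24 (adjusted p = 0.0699), and 0.53 ± 0.16 and 1.13 ± 0.24 within array sets 1 and 2. With the replicate numbers as a block it passed (0.83 ± 0.18, adjusted p = 0.0281), so that 2 probe sets rose between these ages in place of 1. The P28 against P12 difference was 0.43 ± 0.26 (adjusted p = 0.248) and -0.16 ± 0.24 with the covariate. It passed without P12 replicate 4 (0.71 ± 0.19, adjusted p = 0.0139) and with the replicate block (0.60 ± 0.21, adjusted p = 0.0487). In that block P28 shares only a number with P12, and deviations of arrays with the same number had correlations of -0.12 to 0.03.

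Cdkn2b (p15), an Ink4 inhibitor induced by TGF-beta in epithelial cells, was the 1 member that fell. It was at 6.18, 5.98, 5.36 and 5.76 on the P1 arrays, at 6.63, 6.22, 6.09 and 6.36 on the P12 arrays, and at 5.24, 4.96 and 5.54 on the P28 arrays. All P28 arrays were below all P12 arrays, and 1 of them was above the lowest P1 array. The P28 signal was low, near or below the array medians (5.499 to 5.57), though above the highest Trp control (3.96). In P28 against P12 Cdkn2b fell by 1.08 ± 0.20 on the log2 scale (adjusted p = 0.00112, 0.475-fold), and by 0.84 ± 0.24 with the 3′ to 5′ covariate (adjusted p = 0.0293). In P28 against P1 the change was -0.57 ± 0.20 (adjusted p = 0.0386). That call ended without any of P1 replicates 1, 2 and 4 or P28 replicates 1 and 2 (-0.59 to -0.42) and with the covariate (-0.31 ± 0.25, adjusted p = 0.40). In P12 against P1 the difference was 0.51 ± 0.18 (adjusted p = 0.143), and it was 0.35 and 0.66 within array sets 1 and 2. It passed only with the array set as a block (0.51 ± 0.14, adjusted p = 0.0485).

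Cdkn2a, which lies beside Cdkn2b, had values of 4.20, 4.80, 4.62 and 4.53 at P1, then 4.62, 4.49, 4.45 and 4.72 at P12, then 4.29, 4.52 and 4.45 at P28. These values are below the median of every array and above the highest Trp control (3.96). No change passed (0.04 ± 0.13 for P12 against P1, -0.15 ± 0.14 for P28 against P12 and -0.11 ± 0.14 for P28 against P1). The 95% intervals spanned -0.46 to 0.33. The signal lay close to background, so a change may not be detectable here, and which of the p16Ink4a and p19Arf transcripts the probe set reads was not examined.

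Among the Cip/Kip genes, the 2 probe sets of Cdkn1b (p27) gave different accounts. The first, 1419497_at, was at 5.88, 6.48, 6.16 and 6.38 on the P1 arrays, at 6.73, 6.28, 6.71 and 7.73 on the P12 arrays, and at 8.68, 8.84 and 8.73 on the P28 arrays. The P28 arrays were close together and above every younger array, and P12 replicate 4 was the highest of those. It rose by 1.89 ± 0.26 in P28 against P12 (adjusted p = 0.000122, 3.71-fold) and by 2.53 ± 0.26 in P28 against P1 (adjusted p = 6.8e-06, 5.76-fold). Under the 3′ to 5′ covariate these increases were 1.48 ± 0.30 (adjusted p = 0.00427) and 2.09 ± 0.31 (adjusted p = 0.000386). In P12 against P1 the difference was 0.64 ± 0.24 (adjusted p = 0.162), and it was 0.32 and 0.95 within array sets 1 and 2.

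The other probe set of Cdkn1b, 1434045_at, was at 10.003, 9.47, 9.08 and 9.40 on the P1 arrays, at 10.16, 10.08, 9.83 and 9.71 on the P12 arrays, and at 9.84, 9.78 and 9.36 on the P28 arrays. The ages overlapped, and no comparison passed (0.46 ± 0.19, -0.28 ± 0.20 and 0.17 ± 0.20, adjusted p = 0.195, 0.319 and 0.547). In P12 against P1 it was 0.38 and 0.53 within array sets 1 and 2, and the change passed without P1 replicate 1 (0.63, adjusted p = 0.0472). The 95% interval of the change in P28 against P1 was -0.26 to 0.60, so a change as large as that of 1419497_at lies outside it, and the value was 0.54 ± 0.23 with the 3′ to 5′ covariate (adjusted p = 0.0978).

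To test the disagreement itself, the difference between the probe sets of a gene was taken on each array and its change between ages was fitted with limma over all 30372 such pairs. For Cdkn1b the difference (1419497_at minus 1434045_at), less its P1 mean, was 2.11, 2.32 and 2.64 on the P28 arrays, against -0.17, -0.54, 0.14 and 1.29 on the P12 arrays and -0.86, 0.27, 0.34 and 0.24 on the P1 arrays. The P28 arrays lay apart from all younger arrays. The 2 probe sets changed by different amounts in P28 against P12 (2.17 ± 0.38, adjusted p = 0.00126) and in P28 against P1 (2.36 ± 0.38, adjusted p = 0.000495), and 25.5% and 33.5% of all pairs did so. Between P12 and P1 they did not pass (0.18 ± 0.35, adjusted p = 0.877, 1.93% of all pairs called). Under the 3′ to 5′ covariate the differences were 1.41 ± 0.39 (adjusted p = 0.0301) and 1.54 ± 0.40 (adjusted p = 0.0171).

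Cdkn1a (p21), a p53 target and a factor of cell cycle exit in myoblasts, passed in no comparison with either probe set. The first of these, 1421679_a_at, was at 10.01, 9.37, 9.85 and 9.89 on the P1 arrays, at 9.40, 9.61, 10.42 and 10.52 on the P12 arrays, and at 9.95, 10.47 and 11.27 on the P28 arrays. The P28 arrays overlapped with both younger ages. The differences were 0.21 ± 0.29 for P12 against P1, 0.58 ± 0.31 for P28 against P12 and 0.78 ± 0.31 for P28 against P1, and none of these passed (adjusted p = 0.785, 0.191 and 0.0662). The P28 against P1 difference was 0.12 ± 0.33 with the 3′ to 5′ covariate. It passed in 4 other settings, namely without P28 replicate 1 (1.09, adjusted p = 0.0184), without dim probe sets (0.78, adjusted p = 0.0387), with only the P28 and P1 arrays (0.78, adjusted p = 0.0469) and with the replicate block (0.89, adjusted p = 0.0142). In that block P28 shares only a number with the younger arrays. The P12 against P1 change was -0.19 within array set 1 and 0.60 within array set 2.

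The other probe set of Cdkn1a, 1424638_at, was at 11.61, 11.10, 10.52 and 10.62 on the P1 arrays, at 11.20, 11.47, 10.65 and 10.58 on the P12 arrays, and at 10.32, 10.69 and 11.16 on the P28 arrays. Here replicates 1 and 2 of P1 and P12 were above replicates 3 and 4, the reverse of the order in 1421679_a_at at P12. No comparison passed (0.01 ± 0.26, -0.25 ± 0.28 and -0.24 ± 0.28, adjusted p = 0.991, 0.548 and 0.543).

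The difference between the Cdkn1a probe sets (1421679_a_at minus 1424638_at), less its P1 mean, divided the younger arrays by array set. It was -0.42 and -0.54 on P1 replicates 1 and 2 and 0.51 and 0.45 on replicates 3 and 4, and at P12 it was -0.61, -0.68, 0.96 and 1.12 in replicate order. The P28 arrays, with the smallest Gapdh 3′ to 5′ differences, were at 0.81, 0.97 and 1.30. The change of the difference was 0.20 ± 0.39 in P12 against P1, 0.83 ± 0.42 in P28 against P12 and 1.03 ± 0.42 in P28 against P1, and none passed (adjusted p = 0.881, 0.165 and 0.0765). With the 3′ to 5′ covariate the last 2 were -0.42 ± 0.20 and -0.30 ± 0.21, with the sign turned, and did not pass either.

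**Figure D3:**
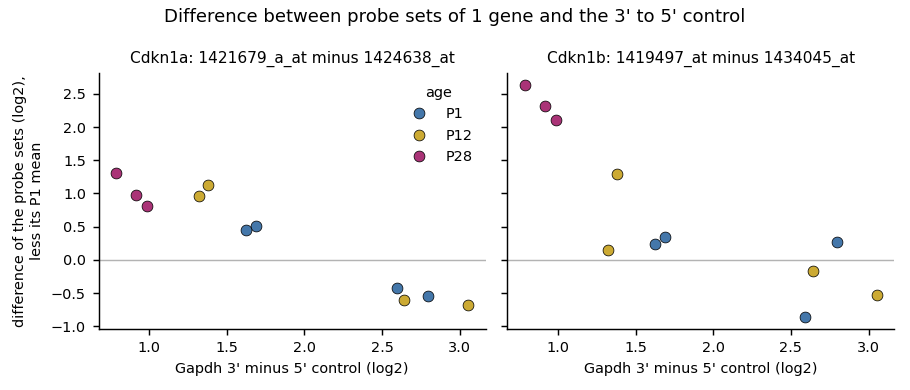
Difference between the 2 probe sets of Cdkn1a (left) and of Cdkn1b (right) on each array, less the mean difference of the P1 arrays (vertical axis, log2), against the log2 difference of the Gapdh 3′ and 5′ controls of that array (horizontal axis). For Cdkn1a the P12 arrays of set 2 (0.96 and 1.12) lie among the P28 arrays (0.81 to 1.30), and for Cdkn1b all P28 arrays (2.11 to 2.64) lie above them (0.14 and 1.29).

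Cdkn1c (p57), an imprinted inhibitor expressed from the maternal allele, was at 13.01, 13.36, 12.37 and 12.58 on the P1 arrays, at 13.15, 13.24, 12.45 and 13.05 on the P12 arrays, and at 11.98, 12.56 and 12.75 on the P28 arrays. The ages overlapped, and P28 replicate 1 was the lowest array. The differences were 0.14 ± 0.24, -0.54 ± 0.25 and -0.40 ± 0.25 for P12 against P1, for P28 against P12 and for P28 against P1, and no comparison passed (adjusted p = 0.826, 0.129 and 0.248). The 95% interval in P28 against P12 was -1.09 to 0.005. That change passed without P12 replicate 3 (-0.72, adjusted p = 0.0484) and after quantile normalization (-0.54, adjusted p = 0.0276), and it was -0.05 ± 0.27 with the 3′ to 5′ covariate. After quantile normalization P28 against P1 also passed (-0.62, adjusted p = 0.0111), and with the covariate that value was 0.12.

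Lists of genes that act with or on the inhibitors were counted with 1 probe set per gene, and their medians stand beside those of all probe sets, which were 0.01 for P12 against P1 and -0.05 for both P28 comparisons. Of 11 cyclins and CDKs, the targets of the inhibitors, the numbers that rose and fell were 3 and 2 between P12 and P1, 1 and 7 between P28 and P12, and 1 and 3 between P28 and P1, with median changes of 0.19, -0.74 and -0.44. Cyclin D1 (Ccnd1), the partner of Cdk4 and Cdk6, rose by 1.65 ± 0.20 and cyclin A2 (Ccna2) by 1.01 ± 0.24 in P12 against P1, where cyclin E1 (Ccne1) fell by 0.88 ± 0.18 and cyclin D2 (Ccnd2) by 0.84 ± 0.14. In P28 against P12 Ccne1 fell by 2.13 ± 0.19 and Ccna2 by 1.66 ± 0.25, while Ccnd2 rose by 1.03 ± 0.15. In P28 against P1 Ccne1 fell by 3.01 ± 0.19 and so did cyclin E2 (Ccne2, -1.40 ± 0.26), and Ccnd1 rose by 1.73 ± 0.22. Of the kinases that Ink4 proteins bind, Cdk6 fell by 0.74 ± 0.17 in P28 against P12 and by 1.20 ± 0.17 in P28 against P1, and Cdk4 (10.29, 10.90 and 10.62 at P1, P12 and P28) passed in no comparison. The number of cyclins and CDKs that rose in P12 against P1 was 1 without any of P1 replicates 1, 3 and 4 or P12 replicates 1 and 4, and the Ccna2 call ended without each of these (0.81 to 1.06). Without _x_at and _s_at probe sets, 0 cyclins and CDKs fell in P12 against P1. In P28 against P12, where Ccnd2 had been the 1 that rose, 0 rose. The Ccne1, Ccnd2 and Cdk4 probe sets are _x_at ones, so these genes were left out of those counts and not tested with another probe set. Other settings gave more calls: 5 of the list rose in P12 against P1 under 5 alternatives (1 probe set per gene, no dim probe sets, trend and robust options, array weights, array set as a block), and 7 fell in P28 against P1 after quantile normalization.

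Of 15 proliferation genes, the numbers that rose and fell were 5 and 0 between P12 and P1, 0 and 13 between P28 and P12, and 1 and 7 between P28 and P1, with median changes of 0.71, -1.09 and -0.47. Mki67, a marker of cycling cells, was at 11.42, 12.34 and 11.01 at P1, P12 and P28. It rose by 0.92 ± 0.19 in P12 against P1 and fell by 1.33 ± 0.21 in P28 against P12. The survivin gene Birc5 (1.49 ± 0.30) and the mitotic kinase Plk1 (1.34 ± 0.24) rose most in P12 against P1, and Cdc20 (-1.77 ± 0.29) and the topoisomerase Top2a (-1.76 ± 0.30) fell most in P28 against P12. The same 2 genes fell most in P28 against P1 (-0.83 ± 0.29 and -0.82 ± 0.30), where the replication clamp Pcna rose by 0.57 ± 0.15. Both falls were close to the threshold (adjusted p = 0.0351 and 0.0456). The Cdc20 call ended when any of 4 arrays was left out (-0.44 without P28 replicate 1) and with the block or the covariate. The Top2a call ended when any of 7 arrays was left out (-0.54 without P28 replicate 1), with the block or the covariate, after median centring and with only the P28 and P1 arrays. The Pcna call ended after quantile normalization (0.29, adjusted p = 0.166) and with the covariate (0.53, adjusted p = 0.0726). No gene of the list fell in P28 against P1 with the Gapdh difference as a covariate (0 genes) or when P1 replicate 2 was left out (0 genes), and 2 to 4 did when P1 replicate 3 or 4 or any P28 array was left out. With only probe sets that are not _x_at or _s_at (marks of probes shared between transcripts), 5 fell in P28 against P12. Genes counted by an _x_at or _s_at probe set (the Mcm genes, Aurkb, Bub1b and Cdc20) were left out of that count. They were not tested with another probe set, and of the genes kept only Pcna did not fall. Leaving out P1 replicate 3 or P12 replicate 1 left 2 genes that rose in P12 against P1, leaving out replicate 4 of either age left 3, and leaving out P12 replicate 3 gave 8. With array weights 8 rose, and with the array set as a block 9 did. Within array set 1 (2 arrays against 2) 0 passed, although Birc5 (1.53 ± 0.33) and Plk1 (1.53 ± 0.30) changed there about as much as over all arrays.

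Of 11 pocket proteins and E2F factors, which act downstream of the CDKs, the numbers that rose and fell were 1 and 0 between P12 and P1, 1 and 7 between P28 and P12, and 1 and 5 between P28 and P1, with median changes of 0.20, -0.90 and -0.46. E2f7, a repressor E2F, fell by 2.11 ± 0.21 and the pocket protein gene Rbl1 (p107) by 1.72 ± 0.26 in P28 against P12. Both also fell most in P28 against P1 (-1.97 ± 0.21 and -1.09 ± 0.26), a call that Rbl1 lost with the covariate (-0.90). Rbl2 (p130), the pocket protein known from quiescent cells, rose by 0.68 ± 0.24 in P28 against P12, close to the threshold (adjusted p = 0.048), and by 0.82 ± 0.24 in P28 against P1. The first of these calls ended without any 1 of 8 arrays (0.53 to 0.76), and the second without P1 replicate 4 (0.70) or P28 replicate 1 (0.67). Of the whole list, 8 fell in P28 against P1 after quantile normalization and 3 with the covariate, in place of 5. In P12 against P1, E2f8 rose by 0.83 ± 0.19, a call lost when any of P1 replicates 1, 3 and 4 or P12 replicates 1 and 2 was left out (0.69 to 0.83).

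Of 14 genes that set the turnover or transcription of p27 and p21, the numbers that rose and fell were 0 and 0 between P12 and P1, 0 and 7 between P28 and P12, and 1 and 6 between P28 and P1, with median changes of 0.07, -0.43 and -0.42. Skp2, the ubiquitin ligase subunit that marks p27 for degradation, was at 10.46, 10.29 and 8.40 at P1, P12 and P28, and it fell by 1.89 ± 0.22 in P28 against P12 and by 2.06 ± 0.22 in P28 against P1. Dtl, the substrate receptor of the ligase that degrades p21 in S phase, fell by 1.08 ± 0.16 in P28 against P12. Foxo4, a FoxO factor, fell by 1.06 ± 0.21 and the ligase gene Rnf123 rose by 0.57 ± 0.18 in P28 against P1. With the 3′ to 5′ covariate 3 genes fell in P28 against P12 and 2 in P28 against P1, and the Foxo4 call ended (-0.57). The Rnf123 call ended without P1 replicate 3 or 4 or P28 replicate 2 (0.41 to 0.55) and after quantile normalization (0.39).

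Of 16 p53 target genes other than Cdkn1a, the numbers that rose and fell were 3 and 0 between P12 and P1, 9 and 0 between P28 and P12, and 11 and 1 between P28 and P1, with median changes of 0.18, 0.55 and 0.74. The BH3-only gene Pmaip1 (Noxa) rose by 1.65 ± 0.20 in P12 against P1 and by 2.54 ± 0.22 in P28 against P1. The growth arrest gene Gadd45a rose by 1.29 ± 0.11 in P12 against P1. The death receptor gene Fas (1.67 ± 0.25) and cyclin G1 (Ccng1, 1.61 ± 0.22) rose most in P28 against P12, and Fas (2.50 ± 0.25) was second to Pmaip1 in P28 against P1, where Perp fell by 0.83 ± 0.20. Perp was close to background (5.13, 4.49 and 4.30 at P1, P12 and P28), and without dim probe sets 0 of the list fell. The 2 Cdkn1a probe sets stood at 0.78 and -0.24 in that comparison and neither passed, although the difference between Cdkn1a and these genes was not tested.

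Of 16 regulators of the Ink4 locus, mostly Polycomb genes, the numbers that rose and fell were 0 and 0 between P12 and P1, 3 and 9 between P28 and P12, and 2 and 6 between P28 and P1, with median changes of 0.06, -0.57 and -0.40. The methyltransferase Ezh2 fell by 1.38 ± 0.19 and Cbx2 by 1.05 ± 0.15 in P28 against P12, where Cbx7 rose by 1.10 ± 0.22 and Ezh1 by 0.59 ± 0.17. Cbx6 (-1.20 ± 0.16) and Ezh2 (-1.08 ± 0.19) fell most in P28 against P1, where Cbx7 rose by 0.88 ± 0.22 and Ring1 by 0.64 ± 0.15. Bmi1, a Polycomb repressor of the Cdkn2a locus, was at 9.49, 9.79 and 9.49 at P1, P12 and P28 and passed in no comparison. With the 3′ to 5′ covariate 4 of the list fell in P28 against P12 and the Cbx7 calls ended (0.78 and 0.54). Without P28 replicate 1, 1 of the list rose in P28 against P12 and the Ezh1 call ended (0.44). Without _x_at and _s_at probe sets, 1 rose and 3 fell in P28 against P1. Cbx6 and Cbx7, read by _s_at probe sets, were among the genes left out of those counts and were not tested with another probe set.

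Of 11 genes in or near the imprinted domain of Cdkn1c, the numbers that rose and fell were 0 and 0 between P12 and P1, 0 and 4 between P28 and P12, and 2 and 4 between P28 and P1, with median changes of -0.13, -0.05 and -0.15. The antisense RNA Kcnq1ot1, which silences Cdkn1c on the paternal chromosome, fell by 1.73 ± 0.27 in P28 against P12 and by 2.58 ± 0.27 in P28 against P1. Its neighbour Tssc4 fell by 0.90 ± 0.16 and 0.76 ± 0.16. Cd81 (0.59 ± 0.14) and Osbpl5 (0.56 ± 0.16) rose in P28 against P1. With the 3′ to 5′ covariate 2 of the list fell in P28 against P12 and 1 in P28 against P1, where the calls of Tssc4 (-0.53) and Osbpl5 (0.44) ended. Without P12 replicate 1 or 4 or P28 replicate 1, 2 fell in P28 against P12.

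**Figure D4:**
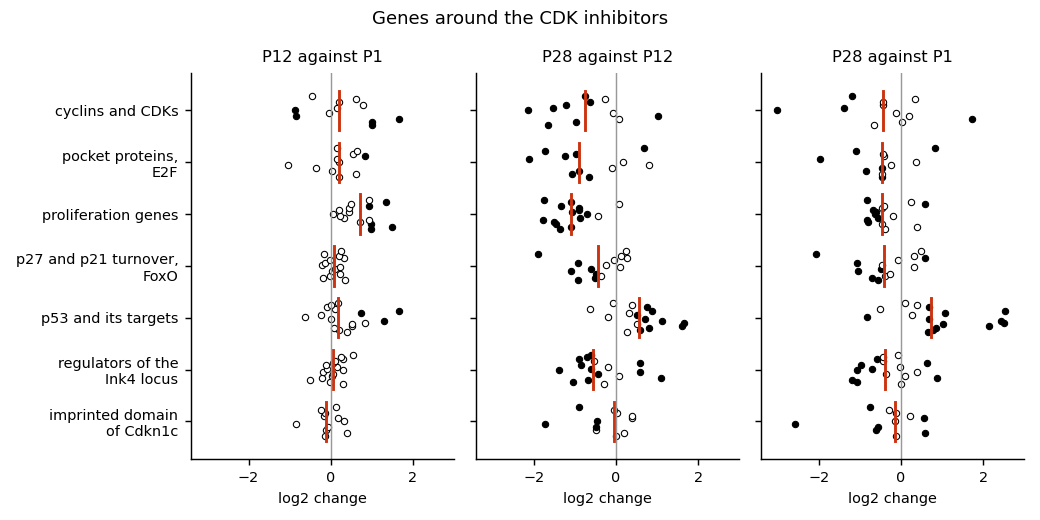
Log2 change (horizontal axis) of each gene of the 7 lists in the 3 comparisons, filled where the adjusted p was under 0.05, with the median of each list as a red line. In P28 against P12 the medians of the proliferation genes (-1.09) and of the p53 target genes (0.55) lie on opposite sides of 0.

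The genes whose pattern was most like that of a member were searched by Pearson correlation over the 11 arrays among 16989 probe sets, using the probe set with the highest mean for each member. These values run over arrays that differ in age, sampled muscles and the Gapdh 3′ to 5′ difference, and the part of each was not tested. Cdkn2d was most like Gfra1 (r = 0.987), a receptor for GDNF, Jsrp1 (0.984), a protein of the muscle triad, and Eif1ad (0.98). Cdkn2c was most like the proteasome genes Psmc3 (0.97) and Psma1 (0.967) and the galectin gene Lgals1 (0.966). Cdkn1c was most like Rnps1 (0.979), Anapc5 (0.951) and Ctbp2 (0.947), and Cdkn2b like Phf10 (0.961), Slc25a15 (0.957) and Zfp407 (0.954). Cdkn1a 1424638_at was most like Zzz3 (0.951), Tpp2 (0.94) and Srp72 (0.935), and Cdkn1b 1434045_at like Zbtb7a (0.936), Rhebl1 (0.935) and Gpam (0.907). For Cdkn2a, near background, they were Naa20 (0.932), Slc4a4 (0.909) and Zbtb5 (0.893).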

How the data were processed

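RNA of sorted GFP-positive cells from 11 samples was hybridised to Affymetrix Mouse430_2 arrays. The deposited log2 values per probe set were made by the authors with RMA, and Affymetrix Expression Console and affy are named, per the submitters' processing notes (no versions given there). No scanner files or probe positions were used here, and arrays have no read depth, so their number limits the precision. Probe sets were named from the platform annotation.

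From these values, group means were fitted with limma 3.58.1 in R 4.3.3 (lmFit, contrasts, eBayes with 8 residual and 5.82 prior degrees of freedom) on all 45037 probe sets. P-values were adjusted by Benjamini-Hochberg, with calls at 0.05 and intervals at 95%. Pairs of probe sets of 1 gene were tested in the same way on within-array differences. The fit was tested on simulated data. The members and gene lists were chosen with earlier results of these data known. All members are described, and from each list the text names the genes with the largest called changes in each direction and a few with known roles. Of 146 listed genes, 10 had no probe set of their own and were not analysed here.

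Deviations from the age means were correlated between P12 and P1 arrays of the same replicate number (0.14 to 0.31 in 4 of 4 pairs). This did not hold for P28 (0 pairs over 0.1). P12 and P1 arrays of the same array set but different numbers correlated similarly (0.14 to 0.25 in 4 pairs), and 3 of 4 P12 arrays correlated best with their own number. Arrays of different sets had negative correlations (-0.29 to -0.11 in 8 pairs), so a pairing by number cannot be told apart from the array set. Array sets 1 and 2 were set apart by an earlier analysis through the 3′ to 5′ difference, not by a label. Alternatives covered normalization, probe set filters, other fits, blocks, the Gapdh covariate and each array left out.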

Additional observations from a re-analysis of the deposited data

Results flagged for a closer look

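The difference between the Cdkn1b probe sets (1419497_at minus 1434045_at) was -4.12 on P1 replicate 1, against -3.02 to -2.92 on the other P1 arrays. That array stood apart from its group by 0.915 of the group's range, above Dixon's critical value for 4 samples. It was the 1 such case among 22 groups examined, and chance alone sets apart about 1 group in 20. Its part in the results was measured by leaving it out: the change of the difference in P28 against P1 was then 2.07 ± 0.35 (adjusted p = 0.000959 in limma).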

How the results depend on the processing

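The P12 against P1 rise of Cdkn2c passed without each array in turn (0.89 to 1.17), as did the rises of Cdkn1b 1419497_at in P28 against P12 (1.70 to 2.18) and P28 against P1 (2.41 to 2.61), the fall of Cdkn2b in P28 against P12 (-1.22 to -0.93) and the rise of Cdkn2d in P28 against P1 (1.14 to 1.44). In P12 against P1, 1 probe set rose. There 2 did without dim probe sets, with the covariate, with the replicate block and within array set 2. With the array set as a block 3 rose (Cdkn2b, Cdkn2c and Cdkn2d), against 0 within array set 1 and 1 to 2 with an array left out. In P28 against P12, where 1 rose and 1 fell, 0 rose with 1 probe set per gene (which keeps 1434045_at for Cdkn1b), 2 rose with the replicate block, 2 fell after quantile normalization, and 1 to 2 rose and 1 to 2 fell with an array left out. In P28 against P1, where 3 rose and 1 fell, 1 rose and 0 fell with the covariate, 2 fell after quantile normalization, 0 fell with only the P28 and P1 arrays, and 2 to 4 rose and 0 to 1 fell with an array left out.

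The Cdkn1a probe sets disagreed in P28 against P1 with only those arrays (1.03) and with the replicate block (1.26), and in P28 against P12 with that block (1.06), where P28 shares only a number. With the covariate these differences turned to -0.30 and -0.42. Within array set 1 the P12 against P1 values were -0.16 for Cdkn1a and -0.061 for Cdkn1b, and with an array left out they spanned -0.11 to 0.49 and -0.19 to 0.42. Signs of changes that had not passed also turned. After quantile normalization this held for Cdkn1a 1424638_at (-0.24) and Cdkn1c (-0.084) in P12 against P1 and Cdkn1b 1434045_at (-0.045) in P28 against P1. With the covariate it held in P28 against P12 for Cdkn1a 1421679_a_at (-0.046) and 1424638_at (0.38), Cdkn1b 1434045_at (0.067) and Cdkn2d (-0.16), and in P28 against P1 for Cdkn1a 1424638_at (0.42) and Cdkn1c (0.12). Within array set 1 it held for Cdkn1a 1421679_a_at (-0.19) and 1424638_at (-0.022). With an array left out, P12 against P1 spanned -0.16 to 0.23 for Cdkn1a 1424638_at, -0.011 to 0.32 for Cdkn1c and -0.075 to 0.12 for Cdkn2a. Where no value above shows it, the cause was not tested.

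Over the whole array, 2181 probe sets were called in P12 against P1, against 230 within array set 1, 1195 with 1 probe set per gene, 3426 with the covariate and 4065 with the array set as a block, and against 1029 to 1105 when P1 replicate 3 or 4, or else P12 replicate 1 or 4, was left out. In P28 against P12, 13229 were called, against 5716 with 1 probe set per gene and 8697 with the covariate, and in P28 against P1, 15753 against 6656 with 1 probe set per gene, which tests fewer probe sets.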
